A study of Mus musculus with 8 samples.

Results

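Mature oligodendrocyte and myelin genes were followed as a list of 31 genes, chosen by symbol for their known role in the cell that makes myelin, and all 31 were found, 1 row each, among the 24883 rows of the deposited table. The libraries came from visual cortex of adult C57BL/6J mice, injected in the cortex with an LNA oligonucleotide (a short synthetic strand whose locked sugars make it bind tightly) at postnatal day 122 and sampled at postnatal day 129, 7 days later. In 4 libraries, called scrambled 1 to 4 here, the oligonucleotide had a scrambled sequence. In the other 4, anti-miR-29a 1 to 4, it was complementary to the microRNA miR-29a. All mice therefore carried an injection of an oligonucleotide, and no uninjected cortex entered the comparison. Whether each library is a mouse of its own is not in the labels. The p-values therefore measure the spread between these libraries, which may be technical.

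Oligodendrocytes wrap axons in myelin, a multilayered membrane that is rich in cholesterol and galactolipids and is held together by a small set of abundant proteins. The transcription factors Sox10 and Myrf switch on the genes for these proteins and lipid enzymes when precursor cells mature. In the mouse cortex myelin is sparse near the surface, denser in the deep layers and densest in the white matter beneath them. The amount of deep tissue in a dissected piece of cortex is therefore one of the things that can set the level of these transcripts, and the value of every library is given below for that reason.

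The microRNA that was blocked belongs to a family whose members share a seed, the bases at positions 2 to 8 that pair with a target. The mature sequences of the family (RefSeq, GRCm38.p6) are shown because the search for sites rests on this seed, which is in capitals:
miR-29a-3p: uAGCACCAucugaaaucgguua
miR-29b-3p: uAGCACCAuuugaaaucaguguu
miR-29c-3p: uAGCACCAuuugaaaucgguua
The match to the seed, TGGTGCT, was searched in the longest annotated 3′ UTR of each member (GENCODE M21, the same assembly as mm10). Of the 31 members 1 held a match, compared with 15.8% of the 13109 tested genes with a 3′ UTR. The median 3′ UTR length was 1030 nt in the members and 1229 nt in the searched genes. The only member with a match was Enpp2, the gene of autotaxin, a secreted enzyme that makes lysophosphatidic acid. It lies on the minus strand of chromosome 15, and the match was at chr15:54839088-54839094 in a 3′ UTR of 465 nt. With the match in capitals the site reads, on the strand of the transcript:
Enpp2 site: tagaagcttctacaTGGTGCTg
A match to the seed is a description of the letters and not a measured site of binding. The gene with this match differed by 0.01 log2 units between groups, and the 30 members without one had a median difference of -0.07.

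Promoter windows, from 250 bases before to 50 after the start of transcription, were at hand for 22 of the 31 members (35 windows, RefSeq, GRCm38.p6). They were searched on both strands for ACAAAG, a core of the sites of Sox10 and its relatives, and for CTGGCAC or CTGGTAC, the letters of Myrf sites. The first was present in 34.3% of the member windows and in 18.7% of all 32851 windows in the table, and the second in 17.1% and 7.1%. Both kinds of match were in 11.4% of the member windows and in 1.44% of all windows. Several windows of a gene can overlap, as those of Mag that hold the same sites do, so these shares are descriptions. Windows with both kinds of match belonged to 3 members, Cnp, Mag and Opalin, and 1 window of each is printed on the strand of its gene, with every match in capitals, because they hold both kinds of match:
Cnp, chr11:100574689-100574988, plus strand: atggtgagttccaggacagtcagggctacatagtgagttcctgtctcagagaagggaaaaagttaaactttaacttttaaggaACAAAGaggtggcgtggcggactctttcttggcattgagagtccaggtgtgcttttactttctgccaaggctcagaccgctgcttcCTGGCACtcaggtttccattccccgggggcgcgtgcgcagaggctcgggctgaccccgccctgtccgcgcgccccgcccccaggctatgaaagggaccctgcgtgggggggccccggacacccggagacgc
Mag, chr7:30914814-30915113, minus strand: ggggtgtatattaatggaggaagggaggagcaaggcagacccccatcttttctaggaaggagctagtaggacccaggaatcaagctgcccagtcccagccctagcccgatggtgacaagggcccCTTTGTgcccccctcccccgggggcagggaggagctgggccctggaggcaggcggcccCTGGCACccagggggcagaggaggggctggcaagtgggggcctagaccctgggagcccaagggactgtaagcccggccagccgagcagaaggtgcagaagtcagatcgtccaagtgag
Opalin, chr19:41077064-41077363, minus strand: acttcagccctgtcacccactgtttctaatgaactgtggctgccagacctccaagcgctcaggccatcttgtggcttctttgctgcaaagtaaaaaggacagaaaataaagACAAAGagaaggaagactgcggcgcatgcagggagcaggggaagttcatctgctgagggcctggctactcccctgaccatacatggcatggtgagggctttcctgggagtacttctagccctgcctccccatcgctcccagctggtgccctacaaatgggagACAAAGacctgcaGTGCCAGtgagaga
In Cnp the matches began 167 and 81 bases before the start, and in Mag 126 and 68 bases before it. In Opalin 1 began 139 bases before the start and the others at 24 and 37 after it.

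Expression is given as FPKM, fragments scaled to the length of the transcript and to the size of the library. Levels of different genes can thus be compared per length. How the size of the library was set is not known here. Rows with a mean of at least 0.5 FPKM were tested, 13912 in all, and every member passed. The members spanned a wide range of levels, from a mean of 754 FPKM for Mbp over the 8 libraries to 2.90 for Aspa, and 28 of them were at 5 FPKM or more. Relative depth, read from the spacing of low values, was 0.983 to 1.17 of scrambled 1 in the other libraries. Markers of cortex were present: Slc17a7, the vesicular glutamate transporter of cortical excitatory neurons, read 577 to 633 FPKM. Ttr, the transcript that marks choroid plexus, read at most 1.51 FPKM and was listed at 0 in 5 libraries.

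The members did not separate the groups of libraries. With the 4 anti-miR-29a libraries against the 4 scrambled ones, 0 of the 31 members passed the test over all genes (limma, Benjamini-Hochberg adjusted p under 0.05), where 2 of the 13912 tested rows (0.0144%) passed, 1 higher (0.00719%) and 1 lower (0.00719%). The smallest adjusted p of a member was 0.314. At an unadjusted p under 0.05, 0 members were higher (7.54% of all rows) and 1 was lower (3.18% of all rows). In 0 members did the groups stand apart without overlap, compared with 6.31% of all rows (4.02% higher and 2.29% lower in anti-miR-29a). The log2 difference, anti-miR-29a minus scrambled on the scale of log2(FPKM + 0.1), was positive in 9 members and negative in 22, while it was positive in 56.6% of all rows. Under quantile normalization or median centring 5 members were positive. Its median was -0.06 over the members and 0.03 over all rows. In 14 members the difference was smaller than 0.1 in size. The 95% intervals of the members, not adjusted over genes, reached from 0.192 to 0.511 log2 units on either side of the estimate. Smaller changes could therefore be missed with these libraries. Larger ones could be missed too in the test over all genes, where Opalin at -0.64 did not pass (limma, adjusted p = 0.314).

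The sign of that median rested on scrambled 1, and its size on scrambled 4 as well. Without scrambled 1 the median was 0.06, with 23 of 31 members positive. At an unadjusted p under 0.05, 3 members were then higher (7.31% of all rows in that fit) and 1 was lower (3.08%). Without scrambled 4 the median was -0.17, with 27 of 31 negative. In that fit 8 members were lower at an unadjusted p under 0.05 (2.25% of all rows) and 0 were higher (6.62%). Neither fit passed a member after adjustment (limma, smallest adjusted p = 0.325 and 0.358).

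**Figure D1:**
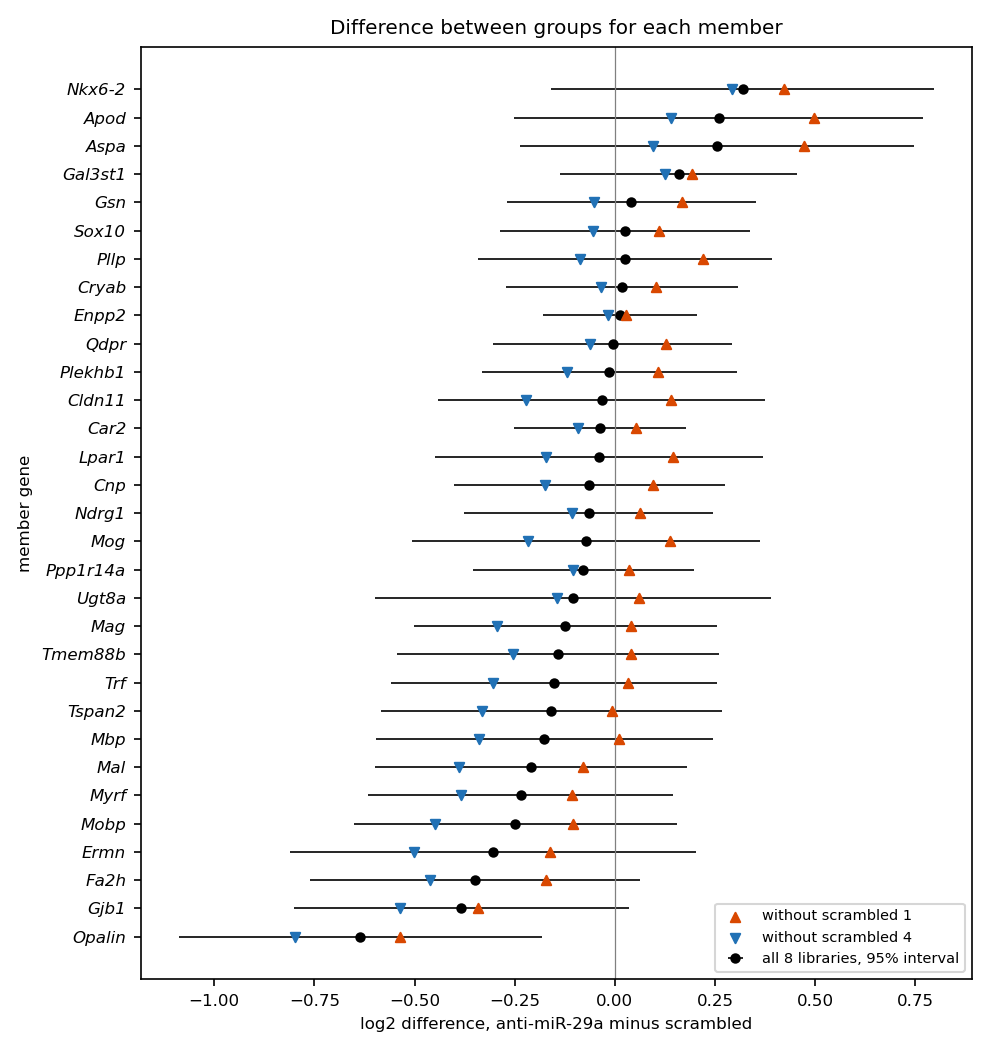
Log2 difference between anti-miR-29a and scrambled libraries (x axis) for each of the 31 members (y axis, sorted by that difference). Black points and bars give the estimate and 95% interval from limma over all 8 libraries, and triangles the estimate without scrambled 1 (up) or scrambled 4 (down); the interval of Opalin alone lies wholly below 0.

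The members' levels varied between libraries of the same group. Scrambled 1 was the highest of the 8 libraries in 25 of the 31 members and the lowest in 0, whereas over all tested rows it was the highest in 8.66%. Scrambled 4 was the lowest in 17 members and the highest in 0, and over all rows it was the lowest in 10.4%. Anti-miR-29a 4 was the lowest in 8 more, and over all rows it was the lowest in 8.27%. The median of the members' log2 levels against the scrambled mean was 0.43 in scrambled 1, -0.05 in scrambled 2, 0.00 in scrambled 3 and -0.34 in scrambled 4. It was -0.12, -0.06, 0.09 and -0.20 in anti-miR-29a 1 to 4. The anti-miR-29a libraries thus lay between the highest and the lowest scrambled library. Over all tested rows the same median ran only from -0.01 to 0.07.

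In other terms, every member was higher in scrambled 1 than in scrambled 4, by 1.09-fold (Enpp2) to 2.26-fold (Aspa) with a median of 1.798-fold. Summed over the members, the level was 2275, 1492, 1691 and 1231 FPKM in the scrambled libraries and 1417, 1523, 1729 and 1393 FPKM in the anti-miR-29a libraries. Mbp made up 44.4% to 50.6% of this sum in each library. The spread of log2 levels was wider among scrambled than among anti-miR-29a libraries in 26 of 31 members, with median SDs of 0.34 and 0.17, compared with 48.7% of all rows. The count was 18 without scrambled 1, with a median SD of 0.24 among the other scrambled libraries, and 24 without scrambled 4. In these pieces of tissue fewer oligodendrocytes and less of each transcript per cell cannot be told apart.

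**Figure D2:**
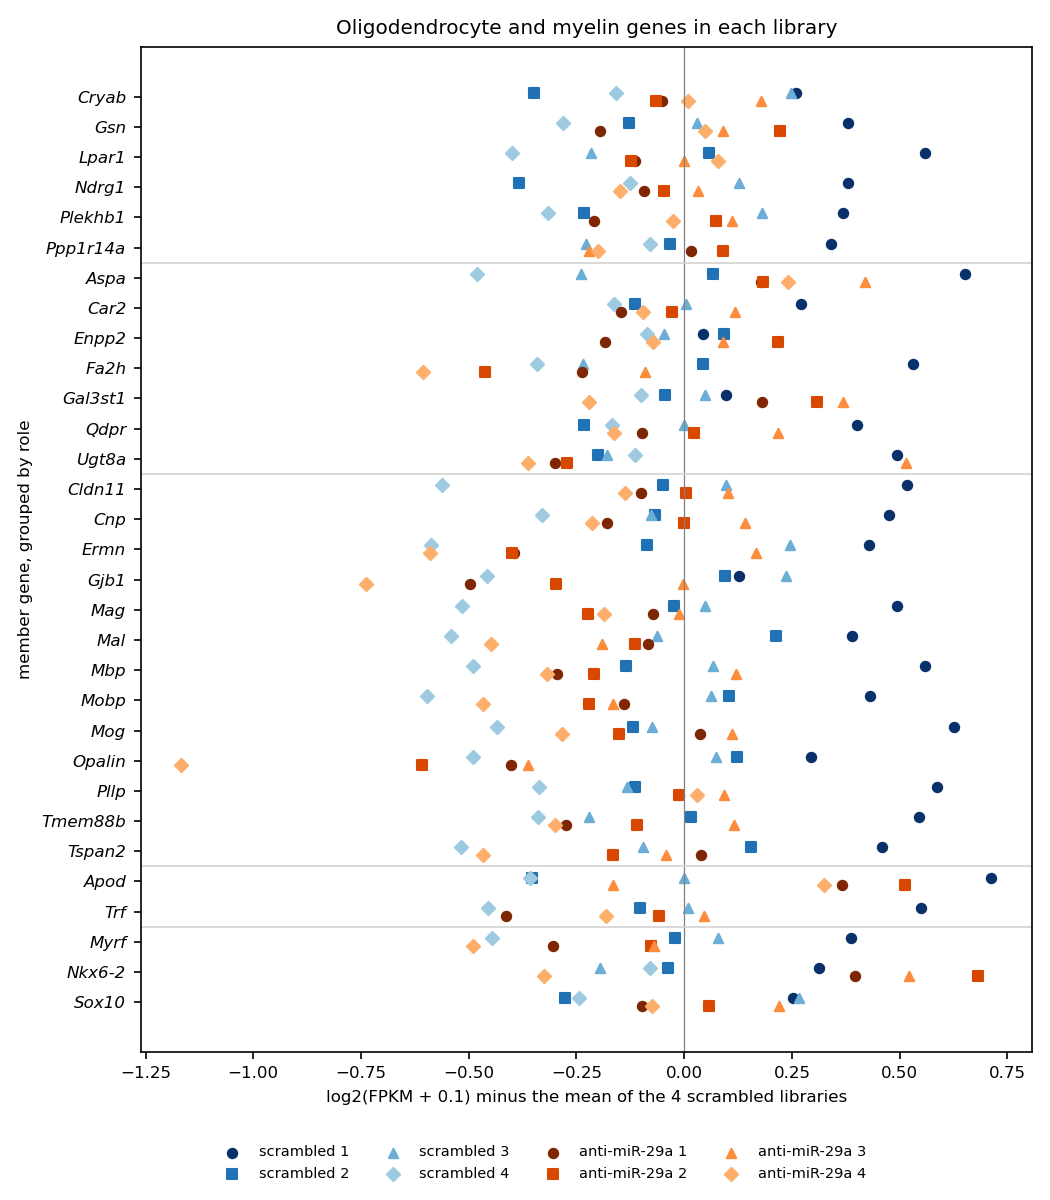
Level of each of the 31 members (y axis, grouped by role) in each library, as log2(FPKM + 0.1) minus the mean of the 4 scrambled libraries (x axis). Blue symbols are scrambled and orange symbols anti-miR-29a libraries; the dark blue circle of scrambled 1 is the highest point in 25 rows, and the pale blue diamond of scrambled 4 is the lowest in 17.

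Most proteins that build the myelin membrane were highest in scrambled 1. Of 13 such members scrambled 1 was the highest library in 12, and scrambled 4 the lowest in 10. Mbp, myelin basic protein, which glues the inner faces of the membrane together, read 1152, 712, 819 and 557 FPKM in scrambled 1 to 4 and 637, 676, 850 and 627 FPKM in anti-miR-29a 1 to 4. The anti-miR-29a libraries fell inside the range of the scrambled ones, with means of 698 ± 104 and 810.0 ± 252 FPKM (SD, n = 4 per group). The log2 difference was -0.18 with a 95% interval of -0.60 to 0.24 (limma, adjusted p = 0.776; exact permutation p = 0.543).

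Mag, an adhesion protein of the membrane next to the axon, read 46.5, 32.5, 34.1 and 23.1 FPKM in the scrambled and 31.4, 28.3, 32.8 and 29.0 FPKM in the anti-miR-29a libraries. Mog, a protein of the outer surface of myelin, read 20.2, 12.02, 12.4 and 9.64 FPKM and then 13.4, 11.8, 14.1 and 10.7 FPKM. For both genes the scrambled group held the highest and the lowest library and the anti-miR-29a group lay between them. Cnp, a phosphodiesterase that keeps the cytoplasmic channels of myelin open, read 78.9, 54.1, 53.8 and 45.1 FPKM against 50.05, 56.7, 62.6 and 48.9 FPKM. Cldn11, the claudin of myelin tight junctions, read 46.5, 31.4, 34.8 and 22.0 FPKM against 30.3, 32.6, 34.9 and 29.5 FPKM. Log2 differences were -0.12, -0.07, -0.06 and -0.03 for Mag, Mog, Cnp and Cldn11, and none passed (limma, adjusted p = 0.827 to 0.964).

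Mobp, a basic protein of compact myelin, read 70.1, 56.0, 54.4 and 34.3 FPKM in the scrambled and 47.2, 44.7, 46.4 and 37.6 FPKM in the anti-miR-29a libraries. Here 3 of the 4 scrambled libraries lay above all anti-miR-29a libraries, and scrambled 4 lay below them all. The difference was -0.25 (limma, adjusted p = 0.661). Mal, a lipid raft proteolipid, had the same layout at 47.0, 41.6, 34.4 and 24.6 FPKM against 33.9, 33.2, 31.4 and 26.3 FPKM, and a difference of -0.21. Pllp, a proteolipid related to Mal, did not share it: it read 32.3 FPKM in scrambled 1, 17.0 to 19.9 FPKM in the other scrambled libraries and 21.3 to 22.9 FPKM in the anti-miR-29a libraries. Without scrambled 1 the difference of Pllp was 0.22, compared with 0.02 over all libraries, -0.01 under quantile normalization and -0.004 under median centring.

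Ermn, a cytoskeletal protein of the outer myelin tongue, differed by -0.30, the tetraspanin Tspan2 by -0.16 and the membrane protein gene Tmem88b by -0.14, and none passed. Gjb1, a connexin of oligodendrocyte gap junctions, was the one gene of the 13 in which scrambled 1 was not the highest. It read 6.56, 6.40, 7.07 and 4.33 FPKM in the scrambled and 4.22, 4.86, 5.98 and 3.55 FPKM in the anti-miR-29a libraries. Again 3 scrambled libraries lay above all anti-miR-29a libraries and scrambled 4 did not, and the difference was -0.38 with a 95% interval of -0.80 to 0.03 (limma, adjusted p = 0.499; exact permutation p = 0.143).

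Opalin, a transmembrane glycoprotein found in oligodendrocytes, had the largest difference in size of the 31 members. It read 17.5, 15.5, 15.0 and 10.1 FPKM in scrambled 1 to 4 and 10.8, 9.32, 11.1 and 6.30 FPKM in anti-miR-29a 1 to 4. The groups overlapped only because scrambled 4 lay below anti-miR-29a 1 and 3. The means were 14.6 ± 3.14 and 9.37 ± 2.18 FPKM (SD, n = 4 per group), a log2 difference of -0.64 with a standard error of 0.204 and a 95% interval of -1.09 to -0.18. This did not pass over all genes (limma, adjusted p = 0.314; unadjusted p = 0.0109; exact permutation p = 0.0857, where 0.0286 is the smallest that 70 relabellings allow). The difference was -0.54 without scrambled 1 and -0.80 without scrambled 4. Its gene spans 41061710 to 41077113 on the minus strand of chromosome 19, and its 3′ UTR of 1330 nt held 0 matches to the seed.

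**Figure D3:**
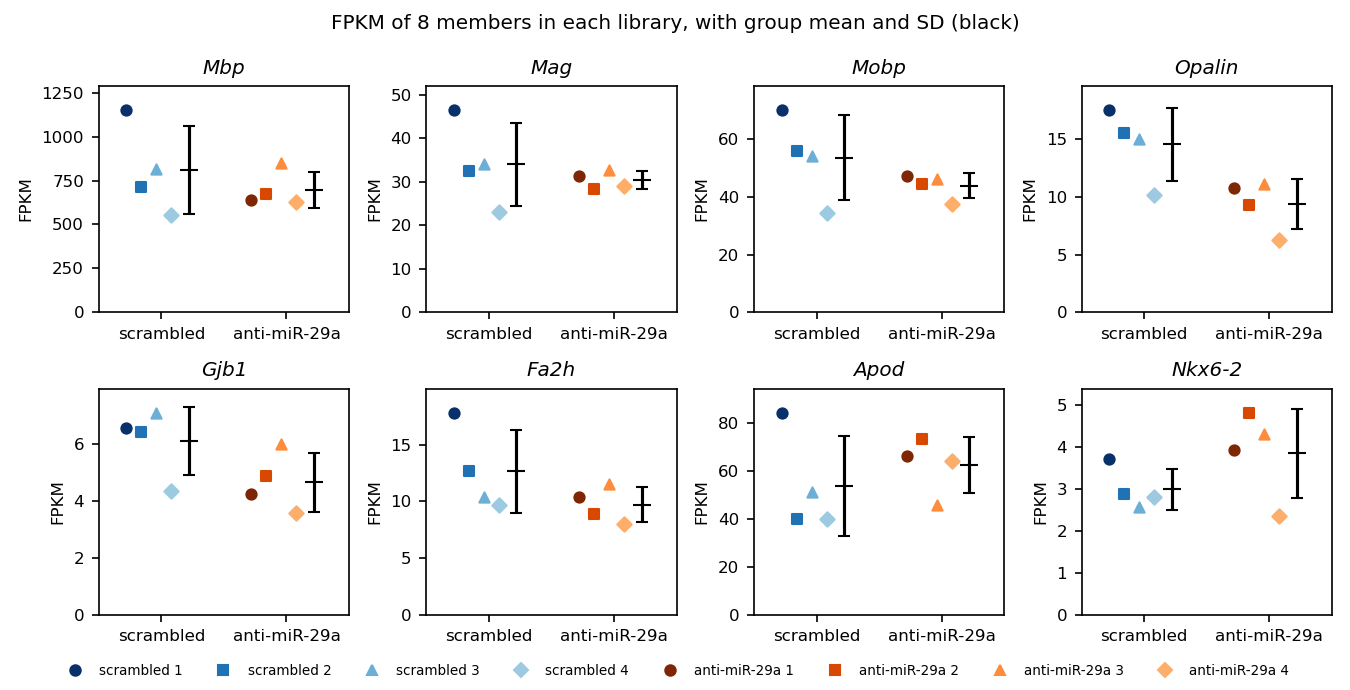
FPKM (y axes, starting at 0) of 8 members in the scrambled (blue) and anti-miR-29a (orange) libraries; the symbol stands for the replicate, and black bars give the group mean and SD (n = 4). Mbp, Mag and Mobp show the high scrambled 1 and low scrambled 4, and 3 of 4 scrambled libraries lie above every anti-miR-29a library for Mobp, Opalin and Gjb1.

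Enzymes of myelin lipids and of oligodendrocyte metabolism were more varied. Scrambled 1 was the highest library in 4 of 7, and the median difference between groups was -0.01. Fa2h, which adds the hydroxyl group to myelin fatty acids, read 17.8, 12.7, 10.4 and 9.68 FPKM in the scrambled and 10.4, 8.90, 11.5 and 8.04 FPKM in the anti-miR-29a libraries. Its difference of -0.35 did not pass (limma, adjusted p = 0.526). Ugt8a, which makes galactocerebroside, read 6.73 FPKM in scrambled 1 and 6.82 FPKM in anti-miR-29a 3, and 3.67 to 4.38 FPKM in the other 6 libraries. So 1 library of each group stood apart for this gene.

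Gal3st1, which turns galactocerebroside into sulfatide, was nearly level among the scrambled libraries at 4.91 to 5.64 FPKM. It read 5.98, 6.55, 6.83 and 4.51 FPKM in the anti-miR-29a libraries, and scrambled 1 was not the highest. Aspa, which frees acetate from N-acetylaspartate, read 4.11, 2.71, 2.17 and 1.82 FPKM against 2.93, 2.94, 3.48 and 3.07 FPKM. In that gene the anti-miR-29a libraries lay above 3 of the scrambled ones and below scrambled 1. The differences were 0.16 for Gal3st1 and 0.25 for Aspa, and that of Aspa was 0.47 without scrambled 1 and 0.09 without scrambled 4. Neither gene passed in any of these fits. Car2, a carbonic anhydrase, Qdpr, a pteridine reductase, and Enpp2 differed by -0.04, -0.01 and 0.01, the last of these -0.02 under either other scaling. Enpp2 was the most even member, with 1.32-fold between its highest and lowest library, and its highest library was anti-miR-29a 2.

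Among the transcription factors, Sox10, present from the precursor onward, read 18.9, 13.0, 19.1 and 13.4 FPKM in the scrambled and 14.8, 16.5, 18.5 and 15.0 FPKM in the anti-miR-29a libraries. Scrambled 1 and scrambled 3 were level for this gene, and the groups differed by 0.03 (-0.003 under either other scaling). Myrf, which drives myelin genes in maturing cells, was highest in scrambled 1 and lowest in anti-miR-29a 4, at 9.21, 6.91, 7.42 and 5.12 FPKM against 5.66, 6.64, 6.68 and 4.96 FPKM, with a difference of -0.24. Nkx6-2, a homeodomain factor of oligodendrocytes, read 3.71, 2.89, 2.58 and 2.80 FPKM against 3.94, 4.82, 4.31 and 2.35 FPKM. Its 3 highest libraries were anti-miR-29a libraries, and so was its lowest. The difference of 0.32 was the highest of the 31 members and did not pass (limma, adjusted p = 0.631).

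Of the secreted carriers, the iron carrier gene Trf followed Mbp, at 85.1, 54.1, 58.4 and 42.3 FPKM against 43.6, 55.8, 60.0 and 51.2 FPKM. Apod, a lipid-binding apolipoprotein, read 84.2, 40.2, 51.3 and 40.0 FPKM in the scrambled and 66.2, 73.3, 45.7 and 64.2 FPKM in the anti-miR-29a libraries. Anti-miR-29a 1, 2 and 4 stood above every scrambled library but the first. The difference was 0.26 over all libraries and 0.50 without scrambled 1, and it did not pass in either (limma, adjusted p = 0.719 over all libraries). Markers of meningeal fibroblasts, which also make Apod, had list medians of 0.54, 1.02, 0.07 and 0.84 in anti-miR-29a 1 to 4, high in the same 3 libraries. In scrambled 1 to 4 the medians were 0.26, -0.40, -0.18 and 0.41, highest in scrambled 4, where Apod was lowest. The summed level of these markers was 24.004 to 43.2 FPKM in the scrambled and 34.2 to 64.2 FPKM in the anti-miR-29a libraries. Of 7 tested markers 6 were positive (56.6% of all rows). At an unadjusted p under 0.05, 3 were higher (7.54% of all rows) and 0 were lower (3.18%). Their part in the level of Apod was not tested.

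The 6 genes of cytoskeleton, chaperone and signalling roles differed by -0.08 to 0.04 between groups, and scrambled 1 was the highest library in all 6. The sign for Cryab, 0.02, was negative under quantile normalization and median centring. Plekhb1, a membrane-associated protein, was the most abundant of them at 139, 91.7, 122 and 86.4 FPKM against 93.1, 113, 116 and 106 FPKM. Cryab, a small heat shock protein, read 106 and 105 FPKM in scrambled 1 and 3, 69.5 and 79.3 FPKM in scrambled 2 and 4, and 84.5 to 100.1 FPKM in the anti-miR-29a libraries. It shared with Sox10 a scrambled 3 that was as high as scrambled 1. Ndrg1, Qdpr, Cryab and Sox10 had their lowest value in scrambled 2 and not in scrambled 4. Gsn, an actin-severing protein, and Lpar1, the receptor for lysophosphatidic acid, spanned 1.58-fold and 1.97-fold between libraries, and Ppp1r14a, an inhibitor of myosin phosphatase, 1.49-fold.

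Because most members moved together, each was next set against the common level of its library. The median of the 31 members was subtracted from the log2 level of each member, both taken against the scrambled mean. On this scale the members are compared with one another and not with all genes, and the values are descriptions with no test. Cnp and Mag lay close to the common level everywhere, at -0.08 to 0.06 and -0.17 to 0.06. Opalin lay at -0.13, 0.17, 0.07 and -0.15 in the scrambled libraries and at -0.29, -0.55, -0.45 and -0.97 in the anti-miR-29a libraries. It was below the common level in all 4 anti-miR-29a libraries and the groups did not overlap on this scale. Aspa lay at 0.22, 0.12, -0.24 and -0.14 and then at 0.29, 0.24, 0.33 and 0.44, also without overlap, on the other side. The groups of these 2 members of 31 stood apart on this scale, compared with 1.47% of all rows after the same subtraction and 6.31% of all rows without it. The subtraction takes out the spread that the members share and adds it to other rows, so nothing particular to these members can be read from the shares.

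Gjb1 and Fa2h had mean levels of -0.31 and -0.28 in the anti-miR-29a libraries on the same scale, and Nkx6-2, Apod and Gal3st1 of 0.39, 0.33 and 0.23, all with overlap between groups. A fit with a covariate, chosen after seeing the data, took the common level from 44 other oligodendrocyte genes instead of from the members. At an unadjusted p under 0.05, 1 member was higher in it (7.54% of all rows) and 2 were lower (3.31%). They were Aspa at 0.36, Opalin at -0.55 and Fa2h at -0.26, and none passed over all genes (limma, adjusted p = 0.446, 0.275 and 0.458). The median over the 31 members was 0.01 in that fit.

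**Figure D4:**
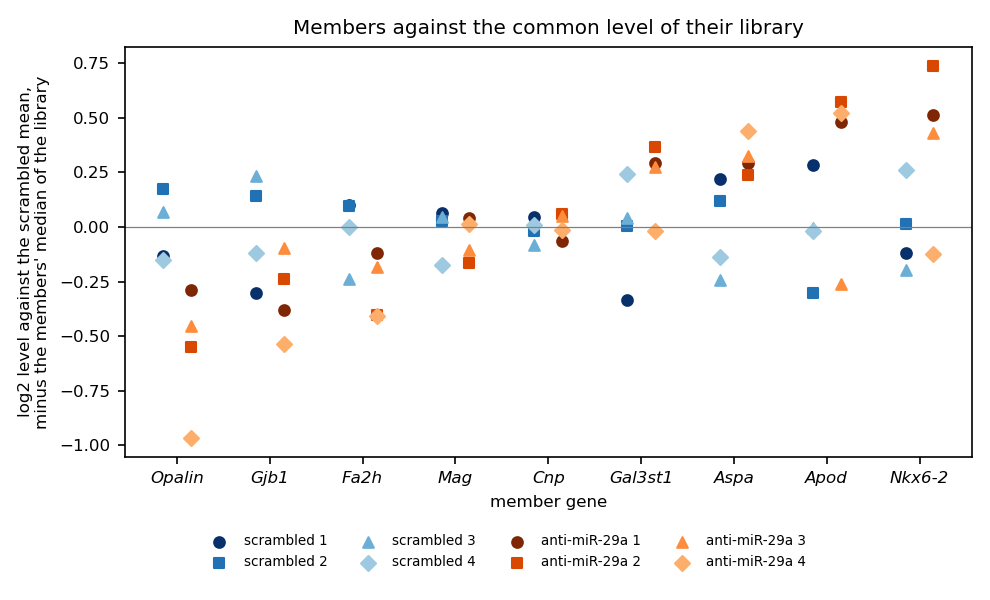
Log2 level of 9 members against the scrambled mean, after subtraction of the median of the 31 members in the same library (y axis). Blue symbols are scrambled and orange symbols anti-miR-29a libraries; Cnp and Mag stay near 0, Opalin lies at -0.29 to -0.97 in the anti-miR-29a libraries, and Aspa lies at 0.24 to 0.44 there.

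The 44 other oligodendrocyte genes, none of them a member, had the same order of libraries within each group as the members. Between groups the order differed for scrambled 2, which lay below anti-miR-29a 1 and 2 here and above them for the members. Their median was 0.30, -0.09, 0.02 and -0.20 in scrambled 1 to 4 and -0.03, 0.00, 0.04 and -0.16 in anti-miR-29a 1 to 4, and scrambled 1 was the highest library in 27 of the 44. Between groups 18 were positive and 26 negative with a median of -0.04, while 56.6% of all rows were positive, and 0 passed over all genes. At an unadjusted p under 0.05, 0 were higher (7.54% of all rows) and 1 was lower (3.18%). That gene was Pex5l at -0.20, a peroxisomal import factor relative, followed by Jam3, a junctional adhesion molecule, at -0.21, the transcription factor Sox8 at 0.25 and the protease Adamts4 at -0.31.

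Genes of precursor and newly formed oligodendrocytes had a narrower range of list medians, and their highest and lowest libraries were other ones. Over 12 such genes the medians were 0.09, -0.02, 0.05 and -0.02 in the scrambled and -0.19, 0.14, -0.08 and -0.07 in the anti-miR-29a libraries, and scrambled 1 was the highest in 3. Their summed level was highest in scrambled 1, at 131 FPKM, with 109.5 to 122.5 FPKM in scrambled 2 to 4 and 103 to 128 FPKM in the anti-miR-29a libraries. C1ql1, a secreted complement-like protein of precursors, was the gene of smallest p among them. It read 4.47, 4.49, 6.07 and 5.14 FPKM in the scrambled and 9.12, 7.73, 6.64 and 7.17 FPKM in the anti-miR-29a libraries, so its groups did not overlap. The difference was 0.59 (adjusted p = 0.201 by limma; p = 0.0286 in the exact permutation, which can go no lower). Gpr17, Vcan and Ptprz1 differed by -0.24, -0.38 and -0.16 without passing.

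Enzymes of sphingolipids and fatty acids outside the list were level across libraries, with medians of -0.05 to 0.04 in all 8. Of 25 tested, 14 were positive and 11 negative between groups and 0 passed over all genes. At an unadjusted p under 0.05, 1 was higher (7.54% of all rows) and 2 were lower (3.18%). Scd2 and Scd1, which put a double bond into fatty acids, read 167 ± 12.6 and 30.3 ± 4.08 FPKM in scrambled and 142 ± 11.001 and 24.3 ± 2.68 FPKM in anti-miR-29a libraries (SD, n = 4 per group), log2 differences of -0.24 and -0.31 (limma, adjusted p = 0.267 and 0.333). Cers5, a ceramide synthase, stood at 0.29 and Sgms1, a sphingomyelin synthase, at -0.21. These enzymes are not particular to oligodendrocytes.

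In scrambled 1, the library highest in myelin genes, the summed level of layer 6 and 6b markers was highest and that of upper layer markers lowest. Neurons of layers 6 and 6b lie next to the white matter, and the summed level of their 10 markers was 102 FPKM in scrambled 1 and 65.7 to 73.5 FPKM in scrambled 2 to 4. It was 85.1, 71.5, 78.3 and 75.1 FPKM in anti-miR-29a 1 to 4. Scrambled 1 was the highest library in 7 of the 10, and none of the 10 was listed at 0 in all libraries. The 8 markers of upper layer neurons summed to 199 FPKM in scrambled 1 and to 227 to 255 FPKM in the other 7 libraries, and scrambled 1 was the lowest in 5 of the 8. General markers of cortical excitatory neurons differed less, at 1520 to 1669 FPKM. Scrambled 4, the library lowest in myelin genes, was not the lowest in layer 6 and 6b markers (69.6 FPKM against 65.7 in scrambled 2). Anti-miR-29a 1 was the second in layer 6 and 6b markers but had a member median of -0.12. The part of dissection depth in the members' levels was not tested.

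Of the other cell types, microglia and endothelial and mural cells had their highest marker sums in scrambled 1, narrowly above the highest anti-miR-29a library. Microglial markers summed to 435 FPKM there, to 273 to 328 FPKM in the other scrambled libraries and to 340 to 432 FPKM in the anti-miR-29a libraries. Scrambled 4 had the lowest microglial sum. The microglial list median was highest in scrambled 1, at 0.41, and lowest in scrambled 4, at -0.27, as for the members. Endothelial and mural markers summed to 118 FPKM in scrambled 1 and to 84.2 to 116 FPKM in the others. Astrocyte markers were highest in anti-miR-29a 2, at 1277 FPKM against 891 to 1168 FPKM elsewhere. Blood markers varied from 14.9 to 163 FPKM, with scrambled 3 the lowest and scrambled 2 the highest. Of the haemoglobin genes, Hbb-bs read 0.00323 FPKM in scrambled 3, but Hba-a1 was lowest in scrambled 4, at 12.8 FPKM. Markers of layer 5 (53.5 to 63.1 FPKM), striatum (62.6 to 73.4), thalamus (15.7 to 20.6), hippocampus (3.10 to 4.86) and choroid plexus and ependyma (3.94 to 8.48) did not have their highest sum in scrambled 1. By list median, thalamus markers were highest there, at 0.40 with scrambled 2 next at 0.37. The part of these cells in the members' levels was not tested.

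**Figure D5:**
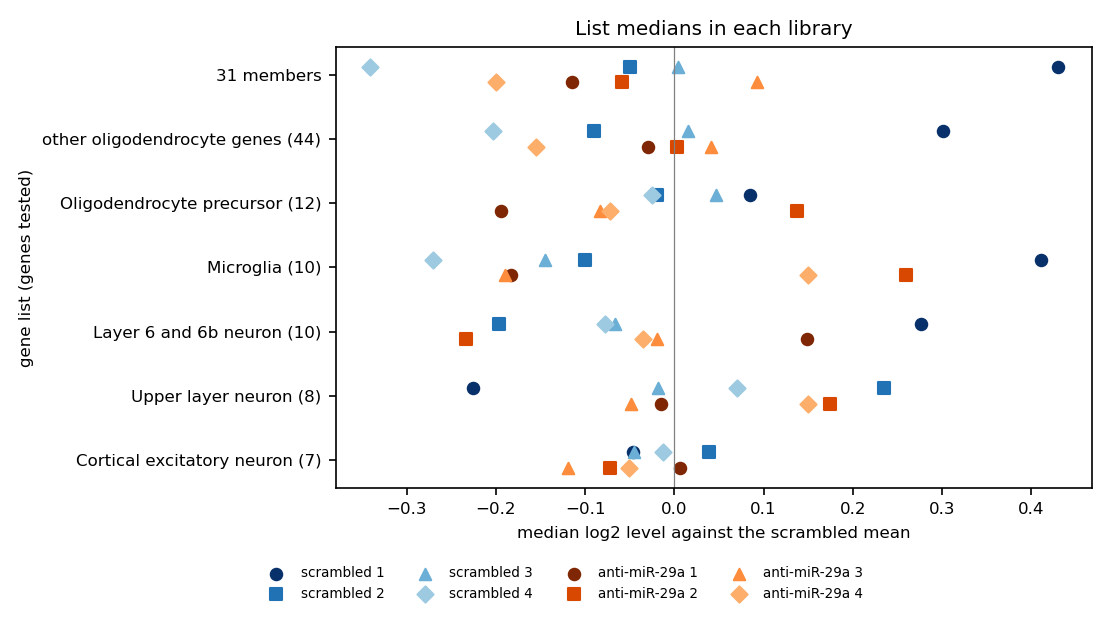
Median log2 level of 7 gene lists (y axis, with the number of genes tested) in each library against the mean of the 4 scrambled libraries (x axis). Scrambled 1 (dark blue circle) lies at 0.43 for the 31 members, 0.41 for microglia and 0.30 for the other oligodendrocyte genes. It lies at 0.28 for layer 6 and 6b markers and at -0.23 for upper layer markers.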

How the data were processed

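RNA of 8 samples of mouse visual cortex was sequenced by the authors, with libraries made by a kit that does not mark strand, per the labels' protocols. The values the authors deposited are FPKM, 1 column per sample. CASAVA 1.8.2, Bowtie and Cuffnorm with the build mm10 are named in the submitters' processing notes. For the order of steps, the annotation and the scaling setting, nothing was given in the sources used here. The members and gene lists were chosen with earlier results of these data known.

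Values were taken as log2(FPKM + 0.1). Rows with a mean of at least 0.5 FPKM entered a fit of limma 3.58.1 (R 4.3.3) over the whole table, modelling the group alone with a trend in the variance. Two-sided p-values were adjusted by Benjamini-Hochberg over 13912 rows, with calls at 0.05. For low genes this scale gives changes that are too small. The fit was tested on simulated data. Exact permutation tests covered all 70 relabellings. Total read counts were not used here, and whole reads could not be recovered for each gene, so no interval for single values is given. Every member is named, with up to 4 genes of smallest p from other lists. Of 13822 tested symbols 99.3% matched GENCODE M21. No 2 libraries were identical, and Pearson correlations between them were 0.923 to 0.962. Alternatives were other pseudocounts (1 and 0.01), filters and scalings, sample weights, robust empirical Bayes, a replicate block, leaving out every library in turn, and, chosen after seeing the data, the oligodendrocyte covariate.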

Additional observations from a re-analysis of the deposited data

Results flagged for a closer look

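Of the 62 groups of 4 libraries (31 members in 2 groups), 2 held a library whose gap to its nearest neighbour, as a share of the group's range of log2 values, was above Dixon's critical value. About 1 in 20 groups is expected to do so by chance. Both belong to Ugt8a. In the scrambled group replicate 1 was set apart at 6.73 FPKM, with the others at 4.12 to 4.38 and a gap of 0.876 of the range. In the anti-miR-29a group replicate 3 was set apart at 6.82 FPKM, with the others at 3.67 to 3.91 and a gap of 0.896 of the range.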

How the results depend on the processing

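No member passed over all genes under any of the 18 alternatives, and the lowest adjusted p among them was 0.195 (limma). Of 555 recomputed member differences 503 kept their sign and 52 turned, and 12 members never turned. The count of tested rows that passed, 2, was 1 with no filter, with a minimum mean of 5 FPKM and with the oligodendrocyte covariate, 10 with robust empirical Bayes and 0 with the replicate block, and 1 to 4 with 1 library left out. The 1 member past an unadjusted p of 0.05 (10.7% of all rows) became 3, all lower, with the replicate block. With the covariate it became 3, of which 1 was higher (7.54% of all rows) and 2 were lower (3.31%). With 1 library left out it became 1 to 8, and the 8, all lower, came without scrambled 4 (2.25% of all rows lower). The 9 members with a positive difference became 5 under quantile normalization, 5 under median centring and 16 with the covariate, and 4 to 23 with 1 library left out. The members' median was -0.17 to 0.06 with 1 library left out. Of the other oligodendrocyte genes 2 were past an unadjusted p of 0.05 with the replicate block and 0 to 2 with 1 library left out. Of the myelin lipid genes 5 were past it under quantile normalization, 5 under median centring and 3 to 5 with 1 library left out. Shares of all rows past it were counted only in the main fit, with the covariate and without scrambled 1 or 4. Counts from the other fits, the replicate block among them, are descriptions with no share to set them against. Scrambled 1 was the highest library in 25 to 27 members with another library left out.

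Signs turned under quantile normalization for Enpp2 -0.023, Sox10 -0.0028, Cryab -0.036, Pllp -0.014, under median centring for Enpp2 -0.017, Sox10 -0.0029, Cryab -0.012, Pllp -0.0043, with sample weights for Plekhb1 0.011, Lpar1 0.0037, and with the covariate for Mog 0.035, Cnp 0.022, Cldn11 0.068, Car2 0.011, Plekhb1 0.058, Qdpr 0.065, Lpar1 0.039 (log2 differences). With 1 library left out the differences that changed sign ranged as follows: Mbp -0.34 to 0.010, Mog -0.22 to 0.14, Mag -0.30 to 0.041, Cnp -0.17 to 0.095, Cldn11 -0.22 to 0.14, Ugt8a -0.31 to 0.060, Trf -0.30 to 0.032, Car2 -0.092 to 0.053, Plekhb1 -0.12 to 0.11, Ndrg1 -0.19 to 0.062, Qdpr -0.083 to 0.13, Lpar1 -0.17 to 0.15, Ppp1r14a -0.15 to 0.035, Tmem88b -0.25 to 0.040, Sox10 -0.066 to 0.12, Cryab -0.099 to 0.10, Gsn -0.052 to 0.17, Pllp -0.088 to 0.22, Enpp2 -0.056 to 0.078. The cause was not tested. The labels do not say that replicate numbers pair the samples. Correlations of same-numbered deviations from the group means were -0.12, 0.01, -0.15 and -0.12, so the replicate block is only an alternative here.

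Libraries were 4 per group. The members' intervals, not adjusted over genes, reached about 0.2 to 0.5 log2 units on either side of the estimate, so smaller differences could be missed. Larger ones could be missed too in the test over all genes, as Opalin at -0.64 did not pass (limma, adjusted p = 0.314). Without strand, reads of overlapping genes on opposite strands are not separable.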
